A study of Caenorhabditis elegans with 6 samples.

Results

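The pharyngeal muscle genes myo-1, myo-2, myo-5, tnc-2, tni-4 and ceh-22 were read from whole-worm RNA of Caenorhabditis elegans. They are 6 of the 46748 genes in the deposited counts table. They were picked by name, as myosins and troponins of the feeding organ and the transcription factor ceh-22. Earlier results of these data were known when they were picked, so their values are a description. All 6 passed the filter on low counts and were tested. The worms, N2 wild-type hermaphrodites, were 2 days old, counted after the L4 larval stage in the series title. The control group received the empty RNA interference (RNAi) vector L4440 and the other group received RNAi against T25B9.1, with 3 libraries in each group. The labels state no other allele or agent. T25B9.1 encodes the worm version of a mitochondrial enzyme of threonine breakdown, glycine C-acetyltransferase.

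The pharynx is the neuromuscular tube that pumps bacteria into the gut of the worm. Its muscle builds thick filaments from myosin heavy chains of its own, which differ from those of body wall muscle, and its thin filaments carry troponin, the calcium-sensing complex that lets myosin act. PHA-4, a FoxA factor, specifies pharyngeal cells, and CEH-22, a homeodomain protein related to vertebrate NKX2-5, activates pharyngeal muscle genes such as myo-2.

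The libraries held 26125982 to 40726259 counts. T25B9.1 stood at 5.99, 4.99 and 6.39 CPM (counts normalised for library size with TMM factors) in L4440 replicates 1, 2 and 3 and at 1.35, 1.71 and 1.76 CPM in the RNAi replicates, so the target was lower in every RNAi library. Its log2 fold change was -1.84 (SE 0.184, adjusted p = 0.0525 by edgeR), so the main test did not call the target itself at 0.05. T25B9.1 RNAi replicate 1 was the most distant library. On the first principal component of log2 CPM, with 47.1% of the variance, it lay at 41.9 and the other libraries lay between -27.5 and 4.59. No label names separate cultures for the replicates, so the p-values reflect the spread of these libraries alone, which may be technical. In RNA from whole worms, fewer cells of a type and less RNA per cell cannot be told apart.

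All 6 pharyngeal muscle genes had a higher mean with T25B9.1 RNAi than with L4440, and in every case the highest library was T25B9.1 RNAi replicate 1. The myosin genes differed most, with means about 2.02-fold (myo-1), 2.05-fold (myo-2) and 1.61-fold (myo-5) as high, and the troponin genes least, at 1.28-fold (tnc-2) and 1.09-fold (tni-4). By the quasi-likelihood test of edgeR none of the 6 reached an adjusted p under 0.05 over 13374 genes. That test called 0 genes higher (0% of those tested) and 0 lower (0%). The 3 myosin genes had an unadjusted p under 0.05, a bound that 536 genes higher (4.01%) and 290 genes lower (2.17%) also met. DESeq2 called 15 genes, 11 higher (0.0823%) and 4 lower (0.0299%), with 731 at an unadjusted p under 0.05. With limma-voom 0 genes were called and 710 had an unadjusted p under 0.05. Neither tool called any of the 6. The 2 groups of libraries overlapped for every one of the 6, while 5.53% of the tested genes were higher without overlap and 5.32% lower. Over all tested genes 28.2% were highest in T25B9.1 RNAi replicate 1 and the median log2 fold change was 0.0024, against a median of 0.60 over the 6 genes.

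The gene myo-2 encodes a myosin heavy chain of pharyngeal muscle, and its promoter is widely used to mark that tissue. It lies on the plus strand of chromosome X from 12468061 to 12475348 (build WBcel235), with 6334 exonic bases in 12 blocks. Its level was 16.5, 21.2 and 31.5 CPM in L4440 replicates 1, 2 and 3 and 81.8, 30.2 and 29.6 CPM in T25B9.1 RNAi replicates 1, 2 and 3. RNAi replicates 2 and 3 thus lay just below L4440 replicate 3, and only RNAi replicate 1 lay above all control libraries, 2.60-fold above the highest of the other 5. The group means were 23.1 ± 7.65 CPM and 47.2 ± 30.0 CPM (SD, n = 3). The log2 fold change was 1.03 (SE 0.395), with an edgeR adjusted p = 0.717.

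The gene myo-1 encodes the other classical myosin heavy chain of the pharynx. It lies on the minus strand of chromosome I from 7258946 to 7267057, with 6457 exonic bases. Its level was 14.97, 18.8 and 29.1 CPM in the L4440 replicates and 76.7, 26.1 and 23.998 CPM in the RNAi replicates, so its order over the libraries was the same as that of myo-2. The means were 21.0 ± 7.31 and 42.3 ± 29.9 CPM (SD, n = 3), with a log2 fold change of 1.005 (SE 0.434, adjusted p = 0.717 by edgeR).

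The myosin heavy chain gene myo-5 lies on the plus strand of chromosome V from 8108970 to 8118131, with 6296 exonic bases. It was at 9.81, 11.02 and 15.5 CPM in the L4440 group and at 28.5, 13.1 and 16.9 CPM with T25B9.1 RNAi. Here RNAi replicate 3 also lay above every control library, and RNAi replicate 2 lay below L4440 replicate 3. The means were 12.1 ± 2.98 and 19.5 ± 7.996 CPM (SD, n = 3), with a log2 fold change of 0.68 (SE 0.276, adjusted p = 0.717 by edgeR).

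The gene tnc-2 encodes troponin C of the pharynx, the subunit that binds calcium. It lies on the plus strand of chromosome II from 10466852 to 10468358, with 819 exonic bases. It was at 5.74, 3.73 and 5.94 CPM in the L4440 group and at 8.31, 6.50 and 4.87 CPM with RNAi. Replicates 1 and 2 of the RNAi group lay above the controls and replicate 3 lay within them. The log2 fold change was 0.35 (SE 0.242, adjusted p = 0.725 by edgeR). The gene shares 157 exonic bases with clec-143 on the opposite strand, and the library kit does not mark strand, but clec-143 itself stood at 0.105 to 0.829 CPM.

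The gene tni-4 encodes troponin I of the pharynx, the inhibitory subunit that holds the thin filament off without calcium. It lies on the plus strand of chromosome IV from 5204591 to 5207124, with 821 exonic bases. It was at 19.8, 16.2 and 22.4 CPM in the L4440 group and at 24.8, 18.8 and 20.1 CPM with RNAi. Replicates 2 and 3 of the RNAi group lay inside the control range and replicate 1 lay 1.104-fold above the highest other library. The log2 fold change was 0.12 (SE 0.143, adjusted p = 0.817 by edgeR). Its overlap with Y59E9AL.36 on the opposite strand is 16 exonic bases.

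The transcription factor gene ceh-22 was the least abundant of the 6. It lies on the plus strand of chromosome V from 10671918 to 10675769, with 2369 exonic bases. It drew 27, 21 and 17 counts with the control vector and 32, 24 and 48 counts with RNAi, so counting error alone was 14.4% to 24.3% of each value. As CPM this was 0.974, 0.680 and 0.587 with L4440 and 1.20, 0.839 and 1.16 with RNAi. Unlike the myosins, its control libraries were highest in replicate 1 and its RNAi replicates 1 and 3 were near each other. The log2 fold change was 0.52 (SE 0.277, adjusted p = 0.717 by edgeR). The gene shares 555 of its exonic bases with the non-coding RNA gene F29F11.19 on the opposite strand. Reads of the shared bases cannot be told apart by strand, and F29F11.19 itself drew 0 or 1 counts in each library. Most of the 633 exonic bases of F29F11.19 are the shared ones, so its count does not show how many such reads there were.

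**Figure D1:**
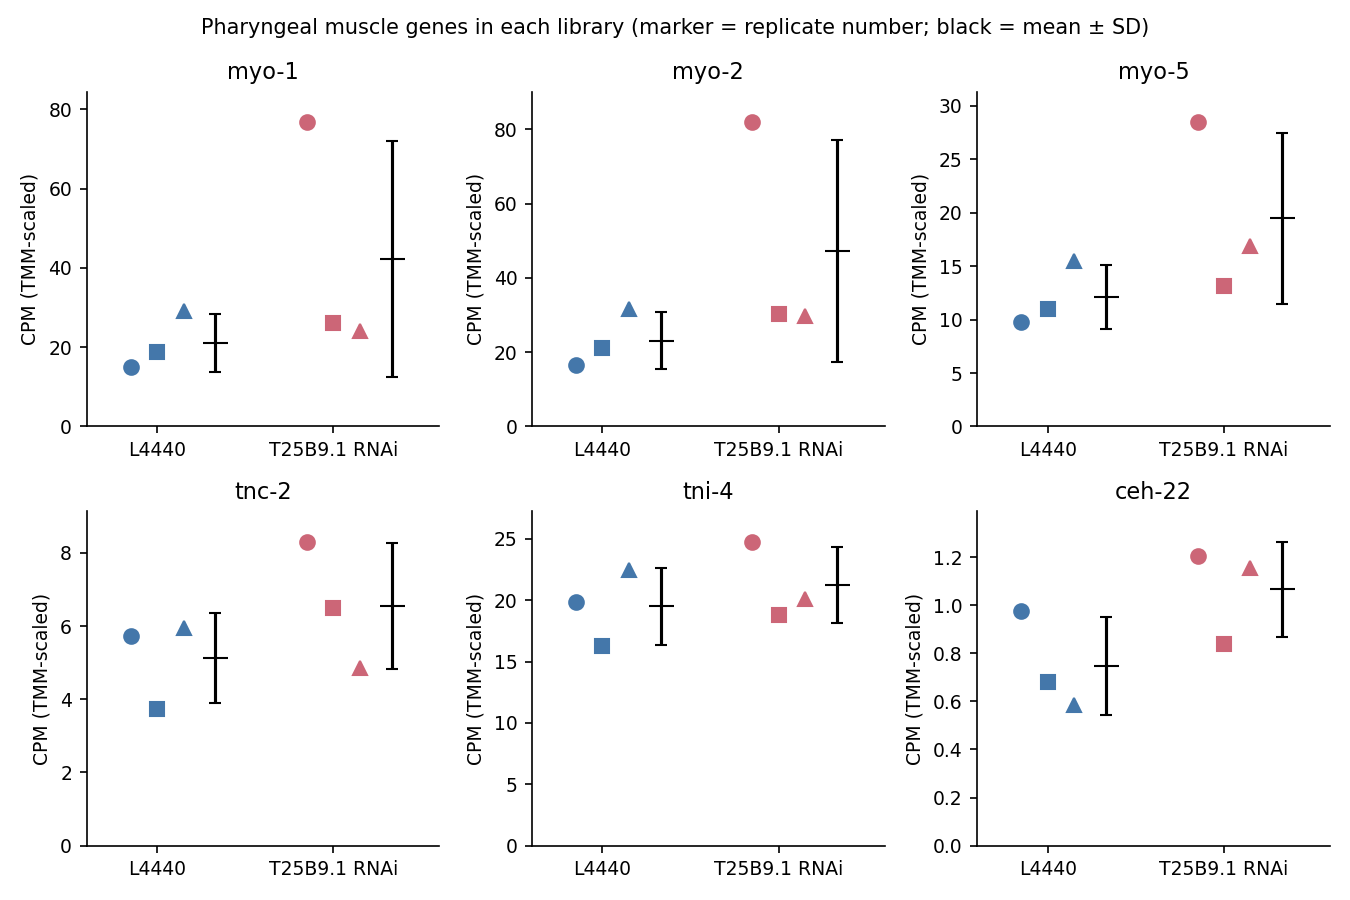
Level in CPM (TMM-scaled, linear axes from 0) of each pharyngeal muscle gene in the 3 L4440 libraries (blue) and the 3 T25B9.1 RNAi libraries (red), with marker shape for the replicate and black bars for the mean ± SD (n = 3). For myo-1 and myo-2 the RNAi replicate 1 points, at 76.7 and 81.8 CPM, lie far above the other 5 libraries, while for tni-4 all libraries lie between 16.2 and 24.8 CPM.

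The size of the myosin differences rested on T25B9.1 RNAi replicate 1. Without it the log2 fold change was 0.25 for myo-1 (edgeR unadjusted p = 0.317), 0.37 for myo-2 (0.138) and 0.31 for myo-5 (0.153). For the troponin genes it was 0.14 (tnc-2) and -0.0030 (tni-4), and for ceh-22 it was 0.43. The median over the 6 genes was 0.28 without that library, and the highest median with 1 library left out was 0.76. Without L4440 replicate 3, the control library with the highest myosin levels, the log2 fold changes of myo-1 and myo-2 were both 1.31. The troponin values also moved with L4440 replicate 2, in which both genes were lowest, since without it tnc-2 was at 0.17 and tni-4 at 0.011. For tnc-2 the value was 0.53 without RNAi replicate 3. With no filter on low counts edgeR called 139 genes, 123 higher (0.543% of 22665) and 16 lower (0.0706%), and these included myo-1 (adjusted p = 0.0141), myo-2 (0.00594) and myo-5 (0.0407) at log2 fold changes of 0.98, 1.01 and 0.67. The counts of these genes were the same in both fits and the fold changes nearly so. Yet the edgeR unadjusted p of myo-1 was 3.18e-05 without the filter and 0.0463 with it, and that of myo-2 6.07e-06 and 0.0291. Over all 19 alternatives the adjusted p ran from 0.0141 to 1 for myo-1, from 0.00594 to 1 for myo-2 and from 0.0407 to 1 for myo-5, and the absence of the filter was the only setting among them that called these genes.

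**Figure D2:**
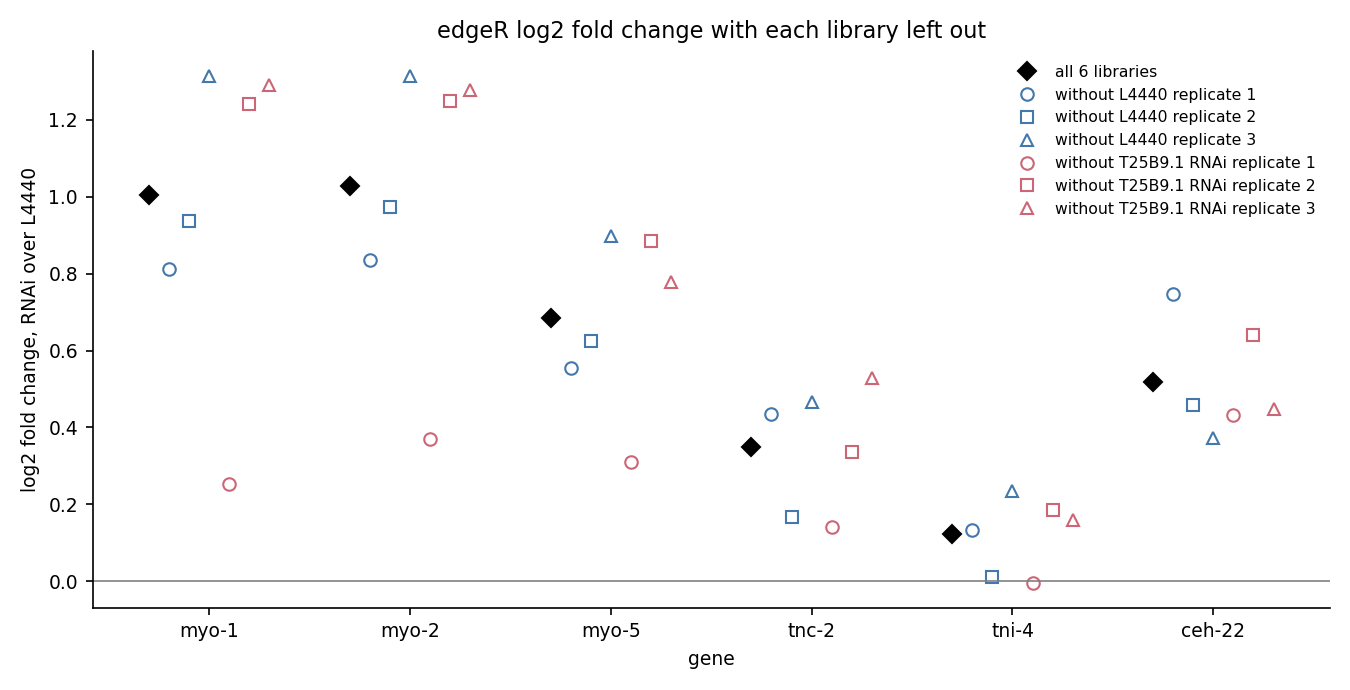
Log2 fold change of each pharyngeal muscle gene (T25B9.1 RNAi over L4440, edgeR) with all 6 libraries (black diamonds) and with each library left out in turn (open markers, blue for a control and red for an RNAi library). Without RNAi replicate 1 the myosin values fall from 1.005, 1.03 and 0.68 to 0.25, 0.37 and 0.31.

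Levels were then compared per kilobase of exon, in CPM per kb. Over the 6 libraries tni-4 was the most abundant transcript at 19.8 to 30.2 CPM per kb and ceh-22 the least at 0.248 to 0.508 CPM per kb, and neither range overlapped that of any other of the 6 genes. Between them tnc-2 ran from 4.55 to 10.1, myo-2 from 2.61 to 12.9, myo-1 from 2.32 to 11.9 and myo-5 from 1.56 to 4.52 CPM per kb. The ranges of these 4 genes overlapped from each neighbour to the next. With L4440 alone the means were 23.8 ± 3.80 for tni-4, 6.27 ± 1.49 for tnc-2, 3.64 ± 1.21 for myo-2, 3.25 ± 1.13 for myo-1, 1.92 ± 0.473 for myo-5 and 0.315 ± 0.0853 CPM per kb for ceh-22 (SD, n = 3).

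Within a library the 2 classical myosins kept nearly the same proportion. The ratio of myo-2 to myo-1 per kb was 1.13, 1.15 and 1.103 with L4440 and 1.09, 1.18 and 1.26 with RNAi, including the replicate where both were highest. The ratio of myo-2 to the troponin gene tni-4 was less even, at 0.108, 0.169 and 0.182 with L4440 and 0.428, 0.208 and 0.191 with RNAi. In that ratio the groups did not overlap, and RNAi replicates 2 and 3 lay near the control range. These 2 genes differ in exonic length, 6334 and 821 bases, and RNAi replicate 1 also differed by transcript length, as given below. The part of length in this ratio was not tested. The log2 difference in the ratio was 0.78, with a 2-sided exact permutation p = 0.1, the smallest that 3 against 3 libraries can give, and p = 0.375 adjusted over the 10 gene pairs compared. The ratio of tnc-2 to tni-4 was 0.230 to 0.290 with L4440 and 0.243 to 0.346 with RNAi, with overlap (exact permutation p = 0.3). The groups also overlapped for myo-2 over myo-5 (exact permutation p = 0.3) and for myo-2 over tnc-2 (exact permutation p = 0.4). The 10 pairs were chosen after the values were seen.

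Body wall muscle uses its own versions of these proteins, and these offered a comparison within the same libraries. The main body wall myosin gene unc-54, with 6204 exonic bases, was at 264, 358 and 414 CPM in L4440 worms and 638, 284 and 374 CPM in RNAi worms. The second body wall myosin gene myo-3 was at 31.2, 29.9 and 39.8 CPM in the control libraries and 74.9, 32.6 and 43.5 CPM in the RNAi libraries. Both were highest in RNAi replicate 1, as the pharyngeal myosins were, and lay there above the highest other library by 1.54-fold for unc-54 and 1.72-fold for myo-3, where the factor was 2.64 for myo-1, 2.60 for myo-2 and 1.68 for myo-5. Their log2 fold changes were 0.32 (SE 0.273, adjusted p = 0.759 by edgeR) and 0.58 (SE 0.263, adjusted p = 0.717 by edgeR).

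The ratio of myo-2 to unc-54 per kb was 0.0614, 0.0581 and 0.0745 with L4440 and 0.126, 0.104 and 0.0776 with RNAi. All RNAi libraries lay above all control libraries, RNAi replicate 3 only narrowly. The log2 difference was 0.64 (exact permutation p = 0.1, adjusted p = 0.375 over the 10 pairs). For myo-1 over unc-54 the groups overlapped, at 0.0505 to 0.0676 with L4440 and 0.0617 to 0.116 with RNAi (exact permutation p = 0.2). For myo-2 over myo-3 the groups overlapped too, at 0.510 to 0.763 and 0.657 to 1.05 (exact permutation p = 0.3). Among the troponins, pat-10, the body wall troponin C, had a log2 fold change of -0.051 (SE 0.139) and the ratio of tnc-2 to pat-10 was 0.0188 to 0.0227 with L4440 and 0.0201 to 0.0340 with RNAi, again with overlap (exact permutation p = 0.3). The troponin I genes unc-27 and tni-3 had log2 fold changes of -0.18 (SE 0.179) and 0.040 (SE 0.203). For tni-4 over unc-27 the groups also overlapped (exact permutation p = 0.2). The troponin I gene tni-1 was at 9.09, 5.93 and 9.36 CPM in L4440 worms and 20.6, 8.88 and 10.4 CPM in RNAi worms, a log2 fold change of 0.71 (SE 0.311, adjusted p = 0.717 by edgeR).

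**Figure D3:**
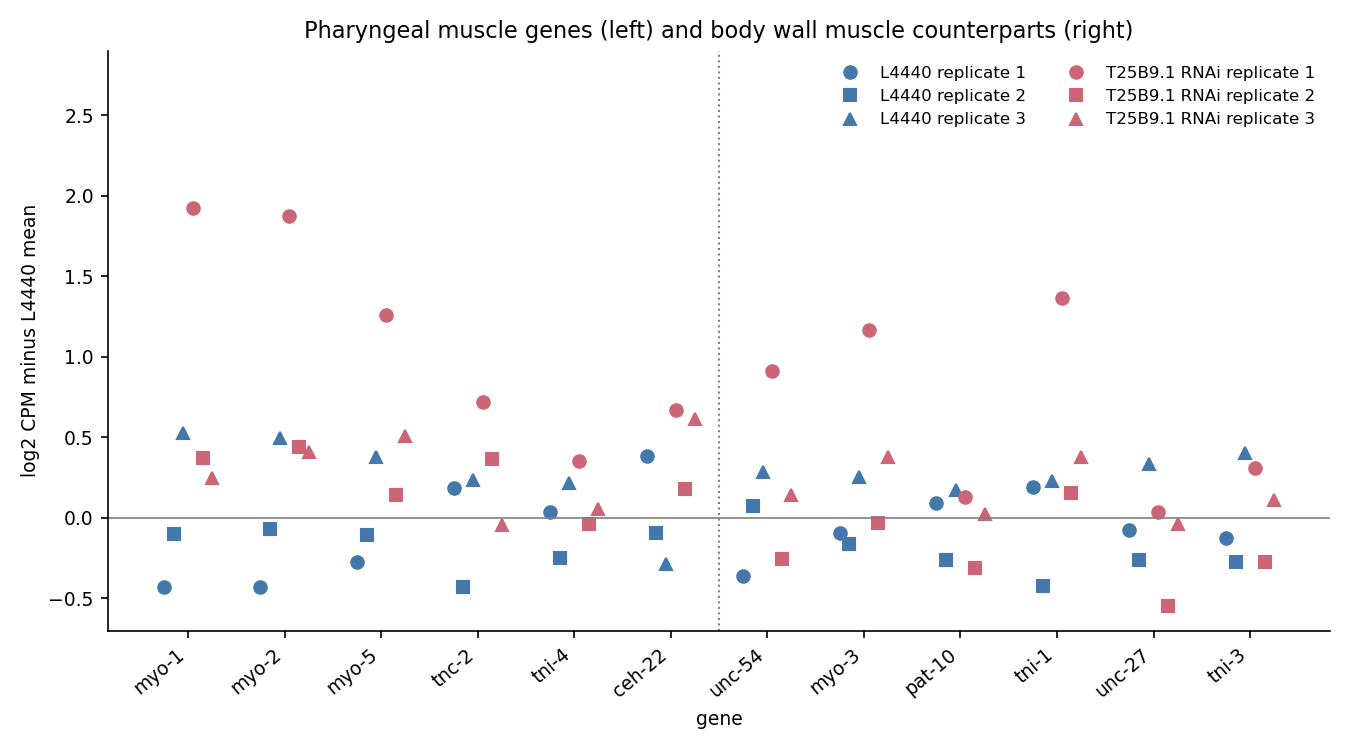
Log2 CPM of each gene minus its L4440 mean, per library (blue for L4440, red for T25B9.1 RNAi, marker shape for the replicate), for the pharyngeal muscle genes left of the dotted line and their body wall counterparts right of it. RNAi replicate 1 (red circles) is the highest library for every pharyngeal gene and for unc-54, myo-3 and tni-1, but not for pat-10, unc-27 or tni-3.

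Other genes used in the pharynx were taken from 5 lists with 43 genes in all, of which 34 were tested. They are not all particular to it, since most of the 7 contractile genes among them also serve other muscle. None of the 34 passed the threshold in either direction (0 higher, 0 lower). Of these, 29 had a log2 fold change above 0, where 50.6% of all tested genes did, and the median was 0.30. An unadjusted p under 0.05 by edgeR was found for 7 genes, all higher, where 4.01% of all tested genes were higher at that bound. Of the 7, phat-2 and abu-10 passed the filter on low counts only through their RNAi libraries. Their place among the 7 was thus in part fixed by the filter. Some genes above 0, such as abu-8, also passed mainly through those libraries. Of the 43, 33 were highest in RNAi replicate 1, where 28.2% of all tested genes were. Unlike that share, the 43 include genes that did not pass the filter on low counts.

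Among 7 further contractile genes the median log2 fold change was 0.062 and 4 were above 0. The gene tnt-4, which encodes the pharyngeal troponin T, the subunit that ties the complex to tropomyosin, was at 3.07, 3.08 and 4.94 CPM in L4440 worms and 10.8, 4.26 and 4.77 CPM in RNAi worms. It had a log2 fold change of 0.83 (SE 0.362, adjusted p = 0.717 by edgeR), and in RNAi replicate 1 it was 2.19-fold above its highest other library, where tnc-2 was 1.28-fold and tni-4 1.104-fold above theirs. The titin-related gene ttn-1 had a log2 fold change of 0.88 (SE 0.387) and the vinculin gene deb-1, which anchors filaments to the membrane, one of 0.42 (SE 0.221). The genes mlc-1, mlc-2, mlc-3 and lev-11, the light chains and tropomyosin that pharyngeal and other muscle share, had log2 fold changes between -0.093 (mlc-2) and 0.062 (mlc-1).

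All 8 tested regulators of pharyngeal cells were above 0, with a median of 0.20. The zinc finger gene peb-1 was at 3.65 ± 0.268 CPM in L4440 worms and 5.497 ± 1.401 CPM in RNAi worms (SD, n = 3), with no overlap and a log2 fold change of 0.59 (SE 0.199, adjusted p = 0.717 by edgeR). The organ identity gene pha-4 had a log2 fold change of 0.15 and pha-1 one of 0.18. Of the regulators, ceh-24 and ceh-28 did not pass the filter. Without RNAi replicate 1 the median of this list was 0.087.

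Among genes of pumping, 8 of 9 tested were above 0, with a median of 0.37. The calcium channel gene egl-19, which carries the muscle action potential, was at 9.42 ± 0.907 and 14.9 ± 5.66 CPM (SD, n = 3), with no overlap and a log2 fold change of 0.65 (SE 0.234, adjusted p = 0.717 by edgeR). The T-type calcium channel gene cca-1 had a log2 fold change of 0.37 and the innexin gene eat-5, which couples pharyngeal muscles, one of 0.51 (SE 0.354). The receptor genes eat-2 and eat-18 did not pass the filter. Without RNAi replicate 1 the median was 0.076.

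Gland genes had a median of 0.36 over 6 tested, with 5 above 0, and it was 0.0090 without RNAi replicate 1. The gland gene phat-2 was at 0.320 ± 0.00785 and 0.910 ± 0.417 CPM (SD, n = 3), with a log2 fold change of 1.47 (SE 0.378, adjusted p = 0.717 by edgeR). It drew only 9, 10 and 9 counts with L4440 and 37, 19 and 28 with RNAi. Counting error alone was thus 16.4% to 33.3% of each value, more than that control SD. The pharyngeal cuticle genes of the abu family had the highest median, 1.37 over the 4 of 8 that were tested, and 0.75 without RNAi replicate 1. Of these abu-14 was at 4.73, 1.72 and 5.08 CPM in L4440 worms and 18.9, 3.46 and 7.78 CPM in RNAi worms. For abu-10 the log2 fold change was 1.57 (SE 0.389), on only 6, 5 and 8 counts with L4440 and 23, 12 and 28 with RNAi. The filter on low counts keeps a gene that is high enough in 1 group alone. Through their RNAi libraries alone phat-2 and abu-10 passed it, and abu-8 through these and L4440 replicate 3. Their values are therefore in part fixed by the filter, and so are the list medians that hold them. The abu genes are close in sequence and can share reads, and those not tested stood under 1 CPM in every library. With no filter on low counts edgeR called ttn-1, phat-2 and abu-14 higher, and it also called genes of other tissues, given with their markers.

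Markers of other tissues were measured beside these lists. The 15 moulting and larval epidermis genes summed to 214 to 307 CPM in the L4440 libraries and to 309 and 296 CPM in RNAi replicates 2 and 3, but to 603 CPM in RNAi replicate 1. In that library 13 of the 15 were highest, and none of the 15 was at 0 in any library. Their median log2 fold change was 0.50 over 14 tested genes and 0.14 without RNAi replicate 1. Neuron markers had a median of 0.19 over 10 genes, and 8 of the 10 were highest in RNAi replicate 1, with a median deviation of 0.50 there from the L4440 mean on the log2 scale. Their sums, 262 to 299 and 259 to 291 CPM in the 2 groups, are mostly snb-1, which was at 167 to 184 CPM with L4440 and 150.3 to 161 CPM with RNAi. Body wall muscle had a median of 0.085 over 17 genes, of which 11 were highest in RNAi replicate 1 (median deviation 0.41), with sums of 1549 to 1968 and 1433 to 2386 CPM, and intestine one of 0.060 over 10 genes, with sums of 43914 to 68378 and 56747 to 66941 CPM. Germline and oocyte markers had a median of 0.018 over 10 genes, with sums of 8492 to 9525 and 8480 to 9402 CPM. Early embryo genes had a median of -0.063 over the 6 of 9 tested, with sums of 10.9 to 12.7 and 10.6 to 13.2 CPM. The 5 sperm genes summed to at most 0.686 CPM, were not tested, and 2 of them were at 0 in some library. In none of these lists did a gene pass the threshold with the filter on low counts. Without that filter edgeR called the moulting genes mlt-11, qua-1 and ptr-4 and the body wall gene tnt-3 higher and the intestinal gene mtl-2 lower, and no gene of the neuron, germline, sperm or early embryo lists. The part of moulting genes or of any other tissue in the pharyngeal values was not tested.

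**Figure D4:**
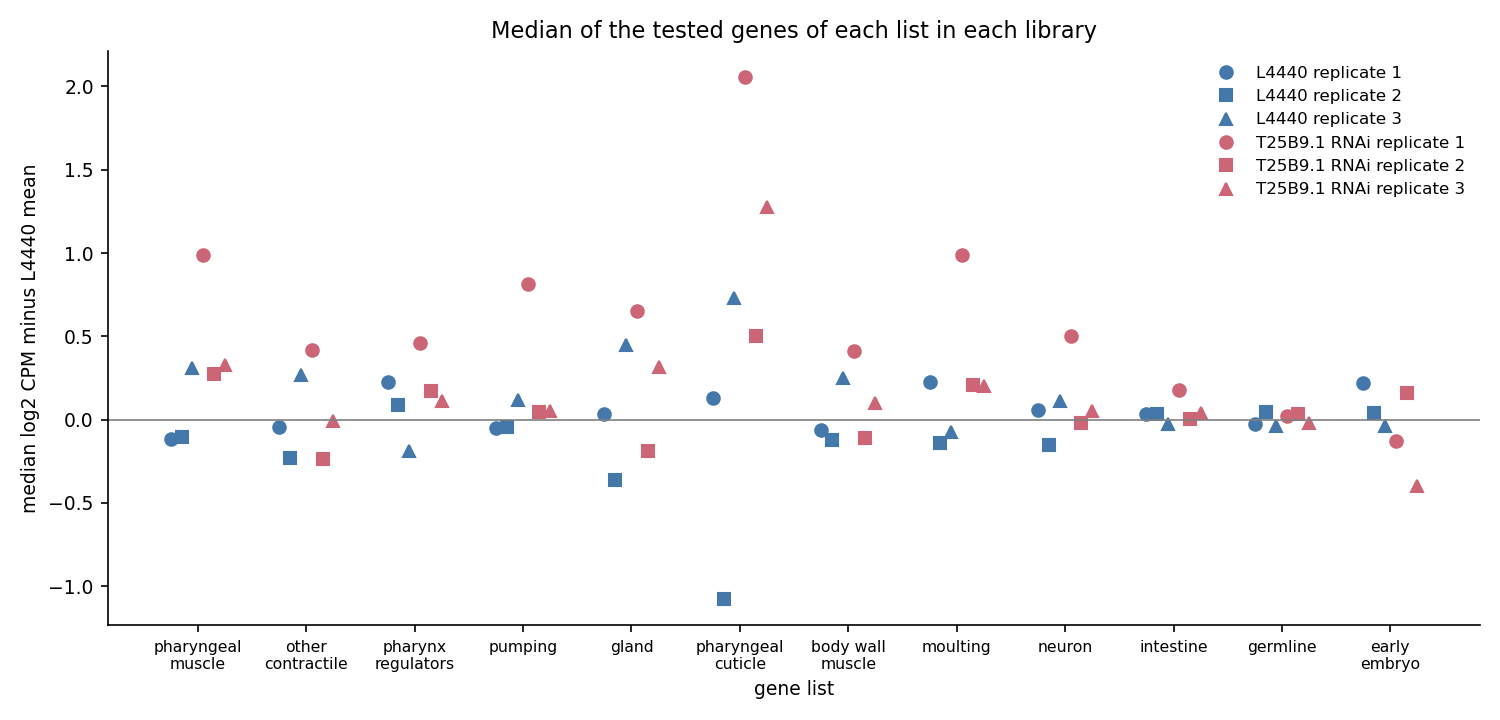
Median over the tested genes of each list of log2 CPM minus the L4440 mean, per library (blue for L4440, red for T25B9.1 RNAi, marker shape for the replicate). In RNAi replicate 1 the median is 0.99 for the 6 pharyngeal muscle genes, 0.82 for pumping genes, 0.99 for moulting genes and 2.06 for pharyngeal cuticle genes, against 0.022 for germline genes.

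RNAi replicate 1 also differed by transcript length. Its median deviation from the L4440 mean was -0.10 on the log2 scale over the 2970 tested genes of 500 to 1000 exonic bases and 0.43 over the 123 genes of 6000 to 8000 bases, while the other 5 libraries lay between -0.096 and 0.17 in the latter class. The 3 myosin genes belong to that longer class and both troponin genes, tnc-2 and tni-4, to the shorter. In RNAi replicate 1 the deviation was 1.92 for myo-1, 1.87 for myo-2 and 1.26 for myo-5, each above the median of its class, and 0.72 for tnc-2 and 0.36 for tni-4, also above theirs. After a correction for exonic length in each library, added after the data were seen, the log2 fold changes were 0.70 for myo-1, 0.74 for myo-2, 0.42 for myo-5, 0.42 for tnc-2, 0.18 for tni-4 and 0.48 for ceh-22, with a median of 0.45. With the same correction and without RNAi replicate 1 the median was 0.19.

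**Figure D5:**
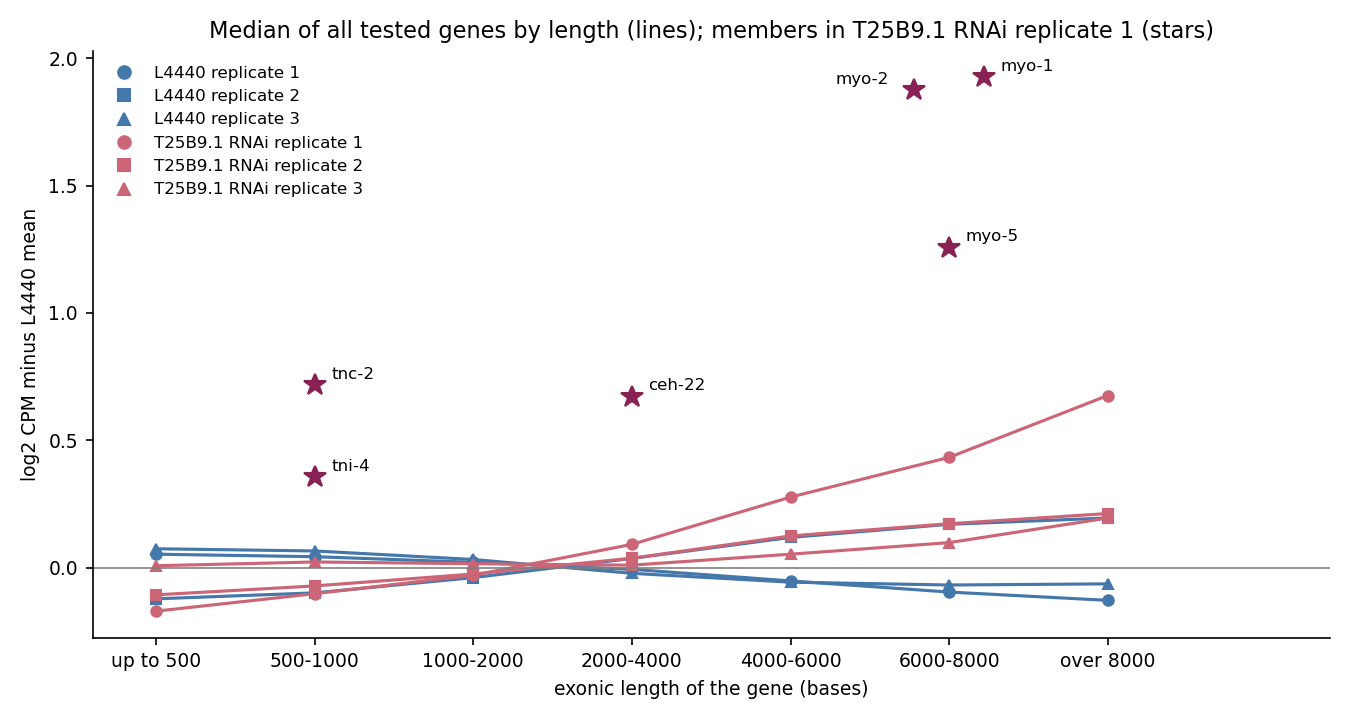
Median over all tested genes in each class of exonic length (bases) of log2 CPM minus the L4440 mean, as a line per library (blue for L4440, red for T25B9.1 RNAi), with stars for the 6 pharyngeal muscle genes in RNAi replicate 1. The line of RNAi replicate 1 rises from -0.17 to 0.68 with length, and every star lies above it, by the most for myo-1 and myo-2.

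Genes with a profile most like the mean of the 6 were sought among 8402 tested genes of at least 5 CPM, by the root mean square difference of centred log2 CPM over the 6 libraries. The closest was the potassium channel gene unc-103 (difference 0.068), followed by T13H5.1 (0.098), the perlecan gene unc-52 (0.10), the neuronal calcium channel gene unc-2 (0.11), the larval timing gene lin-14 (0.11) and the zinc finger gene sem-4 (0.11). The 6 pharyngeal genes themselves differed from their own mean by 0.14 (myo-5) to 0.37 (ceh-22). The level of unc-103 was 4.11, 4.02 and 5.25 CPM in L4440 worms and 8.68, 4.89 and 5.37 CPM in RNAi worms. RNAi replicate 1 was the highest library for it and for the other 5 of these genes. That follows from their choice, since the profile they were matched to is highest there.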

How the data were processed

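Per the labels' protocols, total RNA went into libraries made with a TruSeq v2 kit. The authors deposited raw counts for each gene and a second table named RPKM. Per the submitters' processing notes, the tools were featureCounts 1.4.6-p4, the aligner STAR 2.4.1d and bcl2fastq 1.8.4, and the build was WBcel235. The deposited values of that table were treated as a score, since the ratio of count to value changed between libraries within a gene, and served as an alternative in place of the RPKM the design assumed. Their options and annotation are not given in the sources used.

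Groups came from the labelled perturbation, and replicate numbers follow accession order. Genes were filtered with filterByExpr (13374 of 22665 with a count kept), given TMM factors and tested 2-sided with glmQLFTest of edgeR 4.0.16 in R 4.3.3. The Benjamini-Hochberg adjusted p had to be under 0.05. The biological coefficient of variation was 12.8%. The SE is the log2 fold change divided by the square root of F. Deviations per library use log2 CPM with a prior count of 2. Exonic lengths and coordinates come from Ensembl release 115 (WBcel235), and 1 of 126 listed names was not matched.

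Alternatives were other scalings, no filter or a stricter one (1 CPM and 10 counts in 3 libraries), DESeq2 1.42.0, limma-voom (limma 3.58.1), limma on log2(score + 1) or log2(score + 0.1), each library left out, a block of consecutive library numbers, and a lowess correction for length (span 0.3). A log2 fold change with a pseudocount understates low genes. On simulated counts with 200 genes changed, the edgeR test recovered 35.5% of 1.5-fold changes (13259 genes tested, 5 false calls). It recovered 90.5% of 2-fold changes (13230 genes, 10 false calls) and 96.5% of 4-fold changes (13247 genes, 5 false calls). Every simulated gene had the same coefficient of variation, 12.8%, and no library was made distant. These shares therefore do not hold for genes that varied more, such as myo-1 and myo-2 with RNAi.

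The 6 genes and the lists were chosen with earlier results of these data known. Named genes are the 6, T25B9.1, up to 3 genes per list with the smallest p, the body wall counterparts, and the 6 nearest profiles, while other genes were named for their role or overlap after the values were seen.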

Additional observations from a re-analysis of the deposited data

How the results depend on the processing

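The count of genes called, 0 with all 6 libraries, was 1 with RLE factors or the length correction (T25B9.1), 15 with DESeq2, 139 with no filter, and 83 or 58 on the deposited RPKM plus 1 or 0.1 with a minimum mean of 0.5. It ran from 0 to 1 with a library left out. The gene called without T25B9.1 RNAi replicate 1, with or without the length correction, was C14C6.5, at 18.2 to 20.1 CPM with L4440 and 30.5 to 46.3 CPM with RNAi, named after its values were seen. The median of the 6 genes, 0.60, was 0.28 (T25B9.1 RNAi replicate 1 left out) to 0.76 with a library left out and was 0.19 with the length correction and without T25B9.1 RNAi replicate 1. It moved by less than the spread between libraries of a group (0.329) under all other alternatives. In the stricter filter ceh-22 was not tested. Without T25B9.1 RNAi replicate 1 the log2 fold change of tni-4 was -0.0030, the only change of sign among the 6 genes, and it reached 0.23 without L4440 replicate 3. With a replicate block that paired library numbers 13 and 14, 17 and 18, and 21 and 22 (the labels state no link between them), the log2 fold changes of myo-1, myo-2 and myo-5 were 0.83, 0.89 and 0.63 (adjusted p = 0.477, 0.457 and 0.451), and 0 genes were called. Upper quartile factors, library totals, limma-voom and the deposited RPKM without a minimum also called 0 genes. The cause of these shifts was not tested. At 17 to 48 counts, ceh-22 is the gene limited by depth.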

Other observations

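The deposited table named RPKM orders the libraries differently than the counts do for some of the pharyngeal muscle genes, among them myo-5 and tni-4. The exonic length implied by count, library total and deposited value ran from 5795 to 10055 bases for myo-1, from 4059 to 9903 for myo-2 and from 3887 to 10286 for myo-5, where the annotation gives 6457, 6334 and 6296 bases. For tni-4 it ran from 634 to 1268 bases, where the annotation gives 821. Over the 5934 genes with at least 500 counts in every library, the highest implied length was 1.46 to 2.65 times the lowest. In that deposited table myo-5 is highest in T25B9.1 RNAi replicate 3 (4.43, against 2.82 in RNAi replicate 1), while its CPM is highest in RNAi replicate 1 (28.5 CPM, against 16.9). The deposited value of tni-4 is 32.3 in RNAi replicate 3 and 19.9 in RNAi replicate 1, the lowest of the 6 libraries, while its CPM is highest in RNAi replicate 1.

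The muscle genes also differed among the control libraries. L4440 replicate 3 was the highest control library for each of the 3 pharyngeal myosin genes, for both troponin genes and for tnt-4, and likewise for unc-54, myo-3, pat-10, unc-27, tni-3 and tni-1, while for ceh-22 it was the lowest, at 17 counts.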
